A study of Mus musculus with 31 samples.

Results

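The expression of 10 genes of hepatic metabolic control was examined in mouse liver: the nuclear receptors Nr1h3 (LXRα), Nr1h4 (FXR), Nr1i2 (PXR), Nr1i3 (CAR), Ppara, Nr0b2 (SHP), Nr5a2 (LRH-1), Rxra and Esrra (ERRα), and Hnf4a, itself a nuclear receptor that maintains hepatocyte identity. The members were every probe of the array annotated to these symbols: 17 probes of the 36059, and 10 genes of the 23968, that passed the filter on dim spots. All 17 were well above background on every array. ChREBP, encoded by Mlxipl, is a glucose-responsive transcription factor made as a long isoform, ChREBPα, and a shorter isoform, ChREBPβ, started from an alternative first exon. Livers came from 31 male C57BL6/J mice, 1 one-color Agilent array per mouse, after a 24-hour fast and 18 hours of refeeding with 20% glucose in the drinking water. The groups were 7 Mlxipl-null mice, which lack both isoforms (total KO), 8 WT littermates of that line, 8 mice in which CRISPR removal of exon 1b deletes the β isoform in all tissues (ChREBPβ KO), and 8 WT littermates of this second line. Both deletions were present in every tissue, so effects that start in liver and outside it cannot be told apart. The 2 lines were bred apart, and line and litter cannot be told apart in comparisons across lines.

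Most nuclear receptors bind DNA at sites built from copies of a short hexamer, and many change transcription when a lipid, bile acid or foreign compound fills their ligand pocket. LXRα, FXR, PXR, CAR and PPARα act as pairs with RXRα, whereas HNF4A binds as a pair with itself and LRH-1 and ERRα can bind alone. In liver, these factors set cholesterol disposal, bile acid synthesis, detoxification and fatty acid oxidation, and several of them share target genes with ChREBP.

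The probes that carry the clearest difference lie in Nr1i3, and their sequences show which part of the mRNA was read. The brighter probe lies within a stretch coding for the ligand-binding domain, at chr1:173147776-173147835 on the plus strand of mm9, the build of the array annotation. The dimmer probe begins shortly before the start codon, which is in capitals, and its 60 bases span 229 bases of the genome, chr1:173144301-173144529 on the plus strand, so it crosses an intron. The probes are given 5′ to 3′. The probe of Nr0b2, whose promoter is also shown, lies at chr4:133109694-133109753, and the brighter Ppara and Hnf4a probes lie at chr15:85632110-85632169 and chr2:163398548-163398607, all on the plus strand of mm9.
Nr1i3 brighter probe: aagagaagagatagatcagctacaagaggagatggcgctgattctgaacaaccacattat
Nr1i3 dimmer probe: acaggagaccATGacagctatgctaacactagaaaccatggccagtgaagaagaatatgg

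Promoters are given because ChREBP acts through E-box sequences within a carbohydrate responsive element. The search was for the E-box alone and not for that whole element, and binding of ChREBP was not tested. In RefSeq promoter sequence of GRCm38.p6, the 250 bases before the start of each gene were searched on both strands for the E-box CACGTG, for the nuclear receptor hexamer AGGTCA and for the D-box TTANGTAA that the clock output factor DBP binds. Promoter entries were found for all 10 genes, 14 in all. The E-box was present in 2 of the 14, those of Nr1i3 and Nr0b2, and in 6.02% of 32851 mouse promoters searched in the same way. The hexamer was present in 3 of the 14, against 14% of all, and the D-box in 0 of the 14, against 2.06%. The promoters with an E-box are shown 5′ to 3′ with the match in capitals; it began 244 bases before the start of Nr1i3 (chr1:171213720-171213969, plus strand) and 195 bases before that of Nr0b2 (chr4:133553126-133553375, plus strand).
Nr1i3 promoter: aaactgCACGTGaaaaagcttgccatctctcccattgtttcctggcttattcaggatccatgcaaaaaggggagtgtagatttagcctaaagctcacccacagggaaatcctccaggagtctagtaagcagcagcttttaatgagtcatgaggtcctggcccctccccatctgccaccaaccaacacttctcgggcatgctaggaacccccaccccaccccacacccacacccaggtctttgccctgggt
Nr0b2 promoter: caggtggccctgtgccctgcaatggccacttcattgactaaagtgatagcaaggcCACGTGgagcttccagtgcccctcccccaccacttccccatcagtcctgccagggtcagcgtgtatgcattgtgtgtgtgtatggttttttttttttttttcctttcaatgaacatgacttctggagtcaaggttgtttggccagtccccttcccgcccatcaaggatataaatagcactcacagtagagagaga

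Values are log2 normalized signals, differences are in log2 units with their standard error (SE), and calls rest on limma with an adjusted p under 0.05 over all 36059 probes. Arrays correlated between 0.98 and 0.999. Mlxipl signal ranged from 13.89 to 14.30 in total KO and from 15.14 to 15.48 in their WT littermates, and from 14.40 to 14.84 in ChREBPβ KO and from 14.88 to 15.33 in their WT littermates; where its probe lies relative to the deleted exons was not examined. The 6 hepatocyte markers were bright in all livers, with a log2 summed signal between 20.74 and 20.93, and were slightly higher in total KO (20.88 to 20.93) than in their WT littermates (20.74 to 20.83). Of these markers, Cyp2e1 and Ttr were called higher in total KO. Among markers of other cells, Reln (1 of 4 stellate cell genes), Epcam (1 of 4 cholangiocyte genes) and Alas2 (1 of 4 red blood cell genes) were called higher and Cel and Ctrb1 (2 of 4 measured pancreatic genes) lower in total KO. For Cel and Ctrb1, the total KO values (6.06 to 6.42 and 8.54 to 8.97) lay inside the wider WT ranges (6.04 to 9.33 and 8.41 to 11.94). The summed stellate signal ranged from 11.12 to 12.74 in total KO and from 10.77 to 11.29 in their WT littermates, the cholangiocyte signal from 8.72 to 11.51 and from 9.1 to 10.21, and the pancreatic signal from 13.67 to 15.05 and from 14 to 14.93; their part in the results was not tested. In whole liver, fewer cells of a type and less RNA per cell cannot be told apart.

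With both ChREBP isoforms absent, Nr1i3 mRNA was 2.26- and 2.69-fold higher on its 2 probes and Ppara mRNA 1.61- and 1.55-fold higher than in WT littermates, and the other members differed by at most 0.30 log2 units. In total KO against WT littermates, 5 of 17 probes were called higher and 1 lower. Over all probes, 14.5% were called higher and 14.6% lower. The 5 called higher came from 3 genes with 2 probes each, which are not independent. By unadjusted p under 0.05, 9 of 17 probes differed, against 38.3% of all. Of the 17 differences, 15 were above 0, with a median of 0.17 against 0.008 over all probes and a range from -0.30 to 1.43.

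**Figure D1:**
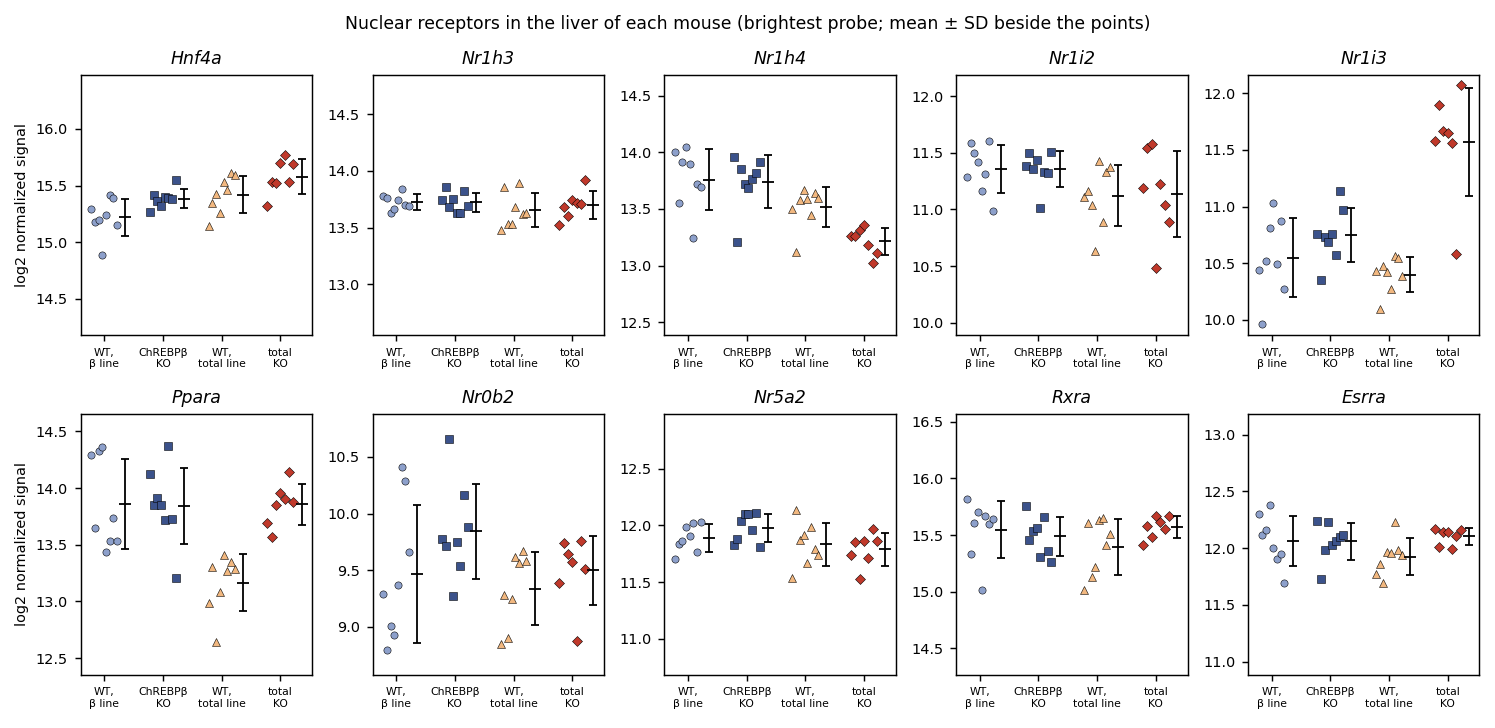
Log2 normalized signal of the brightest probe of each of the 10 genes in each mouse (points; 8, 8, 8 and 7 mice per group), with the group mean ± SD beside them; all panels span the same number of log2 units. Nr1i3 stood above the other groups in 6 of 7 total KO mice, and Ppara was lowest in the WT littermates of the total line.

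Nr1i3 encodes CAR, the receptor that induces Cyp2b10 and other detoxification genes. The brighter Nr1i3 probe ranged from 10.1 to 10.56 (median 10.42) in WT littermates and from 10.58 to 12.07 (median 11.65) in total KO. The dimmer probe ranged from 7.23 to 7.85 (median 7.73) and from 8 to 9.7 (median 9.23), respectively. On both probes every total KO mouse lay above every WT littermate, which 3.26% of all probes did (no member lay wholly below, which 4.14% did). The lowest total KO value on both probes belonged to replicate 7, which lay only just above the WT range, while the other 6 mice were at or above 11.56 on the brighter probe. The difference was 1.17 ± 0.16 (SE; 2.26-fold) for the brighter probe and 1.43 ± 0.18 (2.69-fold) for the dimmer one, with adjusted p values of 1.05e-06 and 4.49e-07. Without replicate 7, the differences were 1.34 and 1.61. The arrays were scanned on 2 days, and the brighter probe differed by 1.34 within the first day and by 0.96 within the second.

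In the ChREBPβ line, the brighter Nr1i3 probe ranged from 9.96 to 11.03 (median 10.5) in WT littermates and from 10.35 to 11.14 (median 10.75) in KO mice. These ranges overlapped, and the difference was 0.20 ± 0.15 with a 95% confidence interval from -0.11 to 0.51. The test of the difference between the 2 knockout effects gave 0.98 ± 0.22 (adjusted p = 0.00224) for the brighter probe and 1.27 ± 0.25 (adjusted p = 0.000701) for the dimmer one. WT littermates of the 2 lines were not called different for Nr1i3 (-0.15 and -0.17), and total KO was also called higher than both groups of the ChREBPβ line, by 1.03 and 0.83 on the brighter probe. The comparisons of total KO with the ChREBPβ line were added after the values were seen.

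Ppara encodes the fatty acid-sensing receptor that drives hepatic fat oxidation in fasting. Its brighter probe ranged from 12.64 to 13.41 (median 13.28) in WT littermates and from 13.57 to 14.14 (median 13.88) in total KO. Every total KO mouse thus lay above every WT littermate, as on 3.26% of all probes. The dimmer probe ranged from 10.93 to 11.89 (median 11.49) and from 11.82 to 12.44 (median 12.06), and 5 of 7 total KO mice lay above all WT littermates. The differences were 0.69 ± 0.15 (1.61-fold, adjusted p = 0.000809) and 0.63 ± 0.16 (1.55-fold, adjusted p = 0.00377). Within the scan days the brighter probe differed by 0.76 and 0.64.

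The level of Ppara in total KO was not above that of the other line. The brighter probe ranged from 13.44 to 14.36 (median 13.69) in WT littermates of the ChREBPβ line and from 13.21 to 14.37 (median 13.85) in ChREBPβ KO. Total KO mice fell inside both ranges, with a difference of 0.00 (95% confidence interval -0.31 to 0.31) from these WT mice and of 0.01 (-0.30 to 0.32) from ChREBPβ KO. The group that stood apart was the WT littermates of the total line, whose brighter probe lay below that of every WT mouse of the ChREBPβ line, by -0.69 ± 0.15 (adjusted p = 0.00142), as 1.17% of all probes did. The effects of the 2 knockouts on Ppara differed by 0.70 ± 0.21 (adjusted p = 0.0212) and 0.71 ± 0.23 (adjusted p = 0.0315), and this contrast contains the low WT group. For the dimmer probe, the call was lost on leaving out any 1 of 7 mice (replicates 1, 3 and 4 of the ChREBPβ line WT, replicate 8 of ChREBPβ KO, replicates 5 and 7 of total KO and replicate 3 of their WT littermates), with a largest adjusted p of 0.0559.

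Between the 2 effects, 4 member probes were called higher, those of Nr1i3 and Ppara, and 0 lower, against 7.02% and 8.08% of all probes. By unadjusted p under 0.05, 5 of 17 probes differed, against 27.8% of all.

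Rxra encodes the shared partner of the lipid-sensing receptors. Its brighter probe ranged from 15.02 to 15.65 (median 15.46) in WT littermates and from 15.41 to 15.67 (median 15.58) in total KO, and the groups overlapped. The difference was 0.17 ± 0.10 (adjusted p = 0.23). The dimmer probe differed by 0.29 ± 0.10 (adjusted p = 0.0256), with 5 of 7 total KO mice above all WT littermates. That call was lost when slide was fitted as a block (adjusted p = 0.093), and without total KO replicate 4 or 8 or WT replicate 1 (adjusted p of 0.0548 to 0.0586).

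Nr1h4 encodes FXR, the bile acid receptor, and only its brighter probe was called. The brighter probe, designed on a RefSeq mRNA, ranged from 13.12 to 13.67 (median 13.58) in WT littermates and from 13.02 to 13.36 (median 13.26) in total KO, and differed by -0.30 ± 0.11 (adjusted p = 0.0279). Apart from replicate 2 at 13.12, all WT littermates lay above all total KO mice. The dimmer probe, designed on another cDNA entry and placed elsewhere in the gene (chr10:88960160-88960219 against chr10:88917222-88917281, both on the minus strand of mm9), differed by 0.17 ± 0.12 (adjusted p = 0.332), and the groups overlapped. The call of the brighter probe was lost when slide was fitted as a block (-0.24, adjusted p = 0.208) and without total KO replicate 7 or 8 or WT replicate 4 (adjusted p of 0.0538 to 0.0619), and no direction is given for the gene. The differences within the scan days were -0.17 and -0.47.

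Hnf4a was among the brightest members, above 98.1% of probes. Its brighter probe ranged from 15.14 to 15.61 (median 15.45) in WT littermates and from 15.32 to 15.77 (median 15.53) in total KO, with overlap. The difference was 0.16 ± 0.08 (adjusted p = 0.119), and the dimmer probe gave 0.09 ± 0.10. In the ChREBPβ line, the brighter probe ranged from 14.89 to 15.42 (median 15.22) in WT littermates and from 15.27 to 15.55 (median 15.38) in KO mice. The differences there, 0.17 ± 0.07 and 0.22 ± 0.10, were the only member differences with an unadjusted p under 0.05 (0.0291 and 0.0289 by limma), and neither passed the adjustment (adjusted p = 0.989 for both). Total KO livers were called higher than WT littermates of the ChREBPβ line by 0.36 ± 0.08 and 0.34 ± 0.10. Between the WT groups, the brighter probe differed by 0.20 ± 0.07 (adjusted p = 0.0518), close to the threshold.

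Nr1h3, encoding the oxysterol receptor LXRα, was not called on either probe, with differences of 0.05 ± 0.06 and 0.11 ± 0.06 in total KO and of 0.00 ± 0.06 and 0.00 ± 0.05 in ChREBPβ KO. The intervals of its brighter probe, -0.08 to 0.17 and -0.12 to 0.12, are among the narrowest of the members. Nr1i2, encoding the xenobiotic receptor PXR, ranged from 10.63 to 11.43 (median 11.14) in WT littermates and from 10.48 to 11.58 (median 11.19) in total KO. Its difference was 0.02 ± 0.13 with an interval from -0.25 to 0.28.

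Nr0b2 encodes SHP, a receptor without a DNA-binding domain that represses LRH-1 and HNF4A. Its values were the widest in the ChREBPβ line, from 8.80 to 10.41 (median 9.33) in WT littermates and from 9.27 to 10.66 (median 9.76) in KO mice, with overlap. The difference of 0.37 ± 0.21 was the largest of the members in that line and was not called (adjusted p = 0.998). In the total line, it ranged from 8.85 to 9.67 (median 9.42) in WT littermates and from 8.88 to 9.76 (median 9.57) in total KO, also with overlap. The difference was 0.16 ± 0.21, with 0.52 within the first scan day and -0.22 within the second.

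Nr5a2 encodes LRH-1, a regulator of bile acid and cholesterol genes. It ranged from 11.54 to 12.14 (median 11.83) in WT littermates and from 11.53 to 11.97 (median 11.85) in total KO, so the KO values lay almost wholly inside the WT range. The differences were -0.05 ± 0.08 in total KO and 0.09 ± 0.07 in ChREBPβ KO.

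Esrra encodes ERRα, which drives mitochondrial genes. Its brighter probe ranged from 11.69 to 12.23 (median 11.95) in WT littermates and from 11.99 to 12.17 (median 12.14) in total KO, inside the WT range. Apart from replicate 6 at 12.23, all WT littermates lay below all total KO mice. On the dimmer probe, which lay between 7.27 and 7.50 in WT littermates and between 7.38 and 7.87 in total KO, 6 of 7 KO mice were above all WT littermates. The probes differed by 0.18 ± 0.08 (adjusted p = 0.119) and 0.26 ± 0.11 (adjusted p = 0.0678) in total KO, and neither probe was called. The dimmer probe was called under 5 of 11 alternative settings of limma, among them slide fitted as a fixed block (0.39, adjusted p = 0.00376), scaling of the median signal to its 75th percentile (0.29, adjusted p = 0.0461) and the fit of the total line alone (0.26, adjusted p = 0.00535), on leaving out 3 of 31 mice (WT replicates 4 and 8 of the ChREBPβ line and total KO replicate 4), and by the exact Mann-Whitney test (adjusted p = 0.0148).

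**Figure D2:**
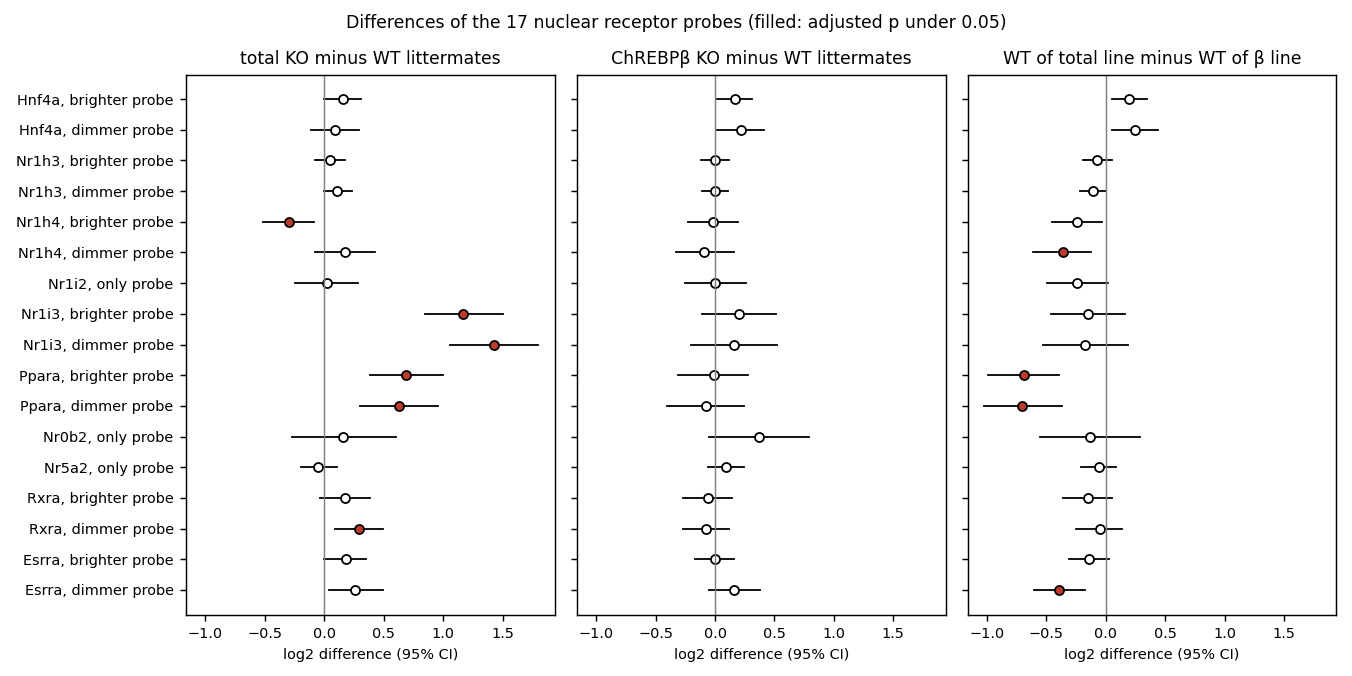
Log2 differences of the 17 probes with 95% confidence intervals in total KO against WT littermates (left), ChREBPβ KO against WT littermates (middle) and WT littermates of the total line against those of the ChREBPβ line (right); filled points passed an adjusted p of 0.05. Nr1i3 reached 1.43 on the left, no point was filled in the middle, and the Ppara probes lay at -0.69 and -0.70 on the right.

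Loss of ChREBPβ alone left no member called. By limma, 0 of 17 probes were called higher and 0 lower, against 0% and 0.00277% of all probes, and the differences ranged from -0.09 to 0.37. By unadjusted p under 0.05, 2 probes (both of Hnf4a) differed, 4.98% of all probes did, and the exact Mann-Whitney test gave the same number before adjustment and 0 after it. The 2 groups overlapped for all 17 probes, and 0.00832% of all probes lay wholly above and 0.0139% wholly below in KO mice. Standard errors of 0.05 to 0.21 set the precision, and the highest upper bound of a 95% interval was 0.79, for Nr0b2.

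Between the WT groups of the lines, 0 member probes were called higher and 4 lower in the total line, against 8.12% and 8.92% of all probes. The 4 were both Ppara probes, the dimmer Esrra probe (-0.39 ± 0.11, adjusted p = 0.0111) and the dimmer Nr1h4 probe (-0.36 ± 0.12, adjusted p = 0.036); the last was lost when slide was fitted as a block (adjusted p = 0.093) and without WT replicates 1, 3, 4 or 8 of the ChREBPβ line or 5, 6, 7 or 8 of the total line (adjusted p up to 0.0982). For Ppara, the difference between the WT groups was -0.94 among arrays of the first scan day and -0.44 among those of the second. By unadjusted p under 0.05, 7 of 17 probes differed, against 30.7% of all, and no member lay wholly above in the total line, which 0.721% of all probes did. Hemoglobin mRNA also moved with the line: the red blood cell markers summed to between 15.65 and 16.74 in WT littermates of the ChREBPβ line and between 16.96 and 17.47 in those of the total line, with Hba-a1 (1.05) and Hbb-bt (0.92) called higher. The pancreatic genes Cela2a (2.13, adjusted p = 0.00246) and Ctrb1 (0.84, adjusted p = 0.039) and the endothelial gene Pecam1 (0.21, adjusted p = 0.0187) were also called higher in the total line, and the hepatocyte gene Cyp2e1 lower (-0.27, adjusted p = 0.00259). The summed pancreatic signal ranged from 13.27 to 14.53 in WT littermates of the ChREBPβ line and from 14 to 14.93 in those of the total line. The part of these markers in the difference was not tested.

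Set against both groups of the ChREBPβ line, total KO had 4 member probes called higher (14.8% of all probes) and 1 lower (15.3%) than the WT mice, and 4 higher (16.1%) and 2 lower (16.5%) than the KO mice. The brighter Nr1h4 probe was lower than in both, by -0.54 ± 0.11 and -0.52 ± 0.11.

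Among mice of the same group, Ppara and Rxra varied together. Deviations from the group means of the brightest probes gave a Pearson r of 0.67 and a Spearman rho of 0.69 over 31 mice (permutation p = 3e-05 and 5e-05, adjusted p = 0.00165 and 0.00275 over 55 relations, 45 of them between members). The correlation was 0.62 without the 2 mice farthest from the median of Ppara, 0.68 over the 16 mice of the ChREBPβ line and 0.68 over the 15 mice of the total line. Of the 45 pairs, this was the only one that passed by both measures; Nr1h3 and Nr1h4 passed by Pearson (r = -0.50, adjusted p = 0.0293) and not by Spearman (rho = -0.37, adjusted p = 0.201) in the permutation test, and Nr1i2 and Nr5a2 by Spearman (rho = -0.56, adjusted p = 0.044) and not by Pearson (r = -0.47, adjusted p = 0.0874). The values share 1 array per mouse.

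**Figure D3:**
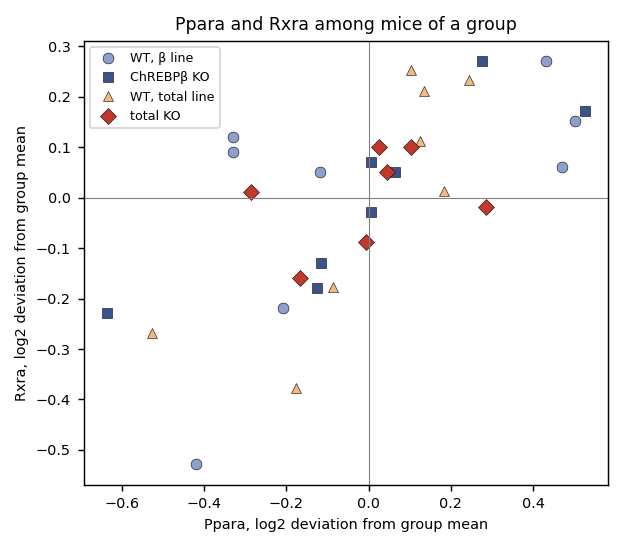
Deviation of Rxra from its group mean (vertical axis, log2 units) against that of Ppara (horizontal axis, log2 units), 1 point per mouse and 1 symbol per group. Points of all 4 groups run from the lower left to the upper right (Pearson r = 0.67 over 31 mice).

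The clock output gene Dbp fell into 6 livers between 8.22 and 10.05 and 10 between 11.83 and 15.26 in the ChREBPβ line. Its relation to the members was therefore taken within each of these parts and within the 15 mice of the total line, 30 relations in all. Each relation used deviations from the group means, so differences between groups do not enter it. Only that of Esrra passed, over the 10 livers with high Dbp (Pearson r = 0.91, Spearman rho = 0.90; permutation p = 0.00073 and 0.00095, adjusted p = 0.0219 and 0.0285; r = 0.71 without the 2 livers of farthest Dbp). Over the 6 other livers, r was -0.46 (exact permutation p = 0.374), and over the total line 0.33 (permutation p = 0.237). Over all 31 mice, the relation of Ppara to Dbp passed by both measures among the 55 (adjusted permutation p = 0.00192 by Pearson and 0.011 by Spearman), and no pooled r is given because of the separate clusters. Within them, r for Ppara was 0.83 over the 6 livers, 0.63 over the 10 and 0.30 over the 15 of the total line, and none passed the adjustment (adjusted permutation p of 0.376, 0.376 and 0.533). In the total line, Dbp ranged from 9.05 to 10.95 in WT littermates and from 12.23 to 14.04 in total KO. These ranges did not overlap, and 3.26% of all probes lay wholly above in total KO. Dbp thus went with genotype in that line, as the brighter Ppara probe did, and the r of 0.30 leaves that shared difference out. The part of Dbp in the Ppara difference there was not tested. Livers were not labelled with an hour of sampling, and the part of that hour in these values was not tested.

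The genes most like each member over the deviations of 31 mice, among 23967 others, were taken as a description. For Ppara they were Tbc1d16 and Gmnn (both r = 0.85), for Rxra Cfhr2 (0.84) and Ccpg1 (0.83), for Hnf4a Camkmt and Cyp2a12 (both 0.77) and for Nr1h3 Apon (0.78) and Dtx3l (0.76). For Nr1h4 they were Pcdh12 (0.80) and Myo6 (0.78), for Nr1i2 Setd5 (0.78) and Ggta1 (0.77), and for Esrra Lcn6 (0.80) and Marveld1 (0.79). For Nr1i3, r was 0.81 with Alad, an enzyme of heme synthesis, and with a probe named only by a design code. The closest genes to Nr0b2 and Nr5a2 were Dexi (0.73) and BC068281 (0.80), and the second in each case was a transcript without a symbol.

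Target genes of the receptors, from lists of textbook targets, were read by the brightest probe of each gene; 14.4% of 23968 genes were called higher and 14.8% lower in total KO. The lists share some genes. Of the 149 genes measured in all lists other than those of cell types, 0 were called in ChREBPβ KO by limma and 12 had an unadjusted p under 0.05; of all genes, 0% were called higher and 0.00417% lower.

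Most measured targets of PXR and CAR rose. In total KO, 9 of 14 measured genes were called higher and 0 lower (also 0 lower by unadjusted p), with a median difference of 0.70 against 0.008 over all genes. The Cyp2b genes encode drug-oxidizing P450 enzymes, and 2 of them moved most. Cyp2b9 rose by 3.62 ± 0.67 (adjusted p = 0.000102) and Cyp2b10, the classical CAR target, by 3.21 ± 0.69 (adjusted p = 0.00067). In ChREBPβ KO they differed by 1.29 ± 0.64 and 1 ± 0.67 and were not called. The difference between the knockout effects was not called for either gene (2.33, adjusted p = 0.0881, and 2.22, adjusted p = 0.125, by limma). Whether CAR drives Cyp2b9 and Cyp2b13 in these livers was not tested. Of the 9, Cyp2b13 was well above background on 0 of 8 WT arrays and 6 of 7 total KO arrays, so no fold is given for it. Sequences of this family are alike, and binding of a paralog to the same probe was not tested. The efflux transporter Abcc3 rose by 1.20 ± 0.14 and the uptake transporter Slco1a4 by 1.12 ± 0.26; both were also lower in WT littermates of the total line than in those of the other line (-0.86 and -1.29).

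Cyp2b10 ranged from 5.12 to 7.40 in WT littermates and from 6.18 to 11.02 in total KO. Replicate 7, the total KO mouse with low Nr1i3, had the lowest value, inside the WT range, and the other 6 were at 8.91 or above. That mouse had the lowest value of the total KO mice for 6 of 14 PXR and CAR targets, among them Cyp2b10, Cyp2b9 (5.99, others 8.74 to 11.31), Cyp3a11 (14.87, others 15.13 to 16.08) and Abcc3 (13.63, others 13.94 to 14.16), and for 16% of all genes. Its Ppara signal was the highest of the total KO mice (14.14), and it was the lowest for 9 of 19 PPARA targets. The other total KO mice were lowest for 0 to 4 targets of either list and for 9.81% to 18.8% of all genes. Without it, 9 PXR and CAR targets and 13 PPARA targets were called higher. This mouse was picked out after its values were seen. High Cyp2b10 was also found without high Nr1i3: WT replicate 2 of the ChREBPβ line had the lowest Nr1i3 of all 31 livers (9.96) and a Cyp2b10 signal of 10.78, and ChREBPβ KO replicates 2 and 5 reached 9.54 and 9.71.

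**Figure D4:**
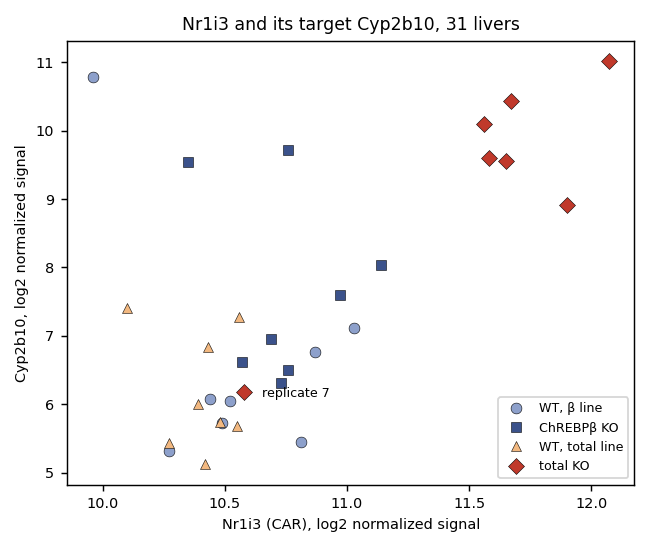
Cyp2b10 against Nr1i3 (brightest probes, log2 normalized signal), 1 point per mouse. Of the total KO mice, 6 lie at the upper right, replicate 7 lies among the WT mice, and 3 mice of the ChREBPβ line have Cyp2b10 of 9.54 to 10.78 with Nr1i3 of 9.96 to 10.76.

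Most targets of PPARα rose as well: 13 of 19 were called higher and 2 lower, with a median of 0.43. The acyl-CoA thioesterase Acot1 rose by 1.43 ± 0.25, the fatty acid ω-hydroxylase Cyp4a10 by 1.17 ± 0.15, the peroxisomal enzyme Ehhadh by 1.14 ± 0.18 and the mitochondrial gatekeeper Cpt1a by 1 ± 0.20. The lipid droplet protein Plin2 fell by 0.60 ± 0.12 on the log2 scale. The effects of the 2 knockouts were called different, higher in total KO, for 7 of these 19 genes and for 4 of the 14 PXR and CAR targets, against 7.09% of all genes, and lower for 1 (Plin2) and 0, against 8.25%. Between WT groups, 1 of the 19 was called higher and 7 lower in the total line, against 7.79% and 9.36% of all genes, the same direction as Ppara itself. Cpt1a was among the 7 (-0.90), whereas Acot1 (-0.03) and Ehhadh (-0.22) were not called and Cyp4a10 was the gene called higher (0.47).

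Of 8 LXR targets, 0 were called higher (1 by unadjusted p) and 3 lower: Srebf1, which activates lipogenic genes (-0.91 ± 0.14), the phospholipid-remodelling enzyme Lpcat3 (-0.47 ± 0.09) and the cholesterol exporter Abca1 (-0.43 ± 0.08). Among 9 FXR targets and bile acid genes, 2 were called higher and 3 lower. The sterol 12α-hydroxylase Cyp8b1 was lower by -1.92 ± 0.25, the bile acid exporter subunit Slc51b by -1.48 ± 0.22 and the canalicular pump Abcb11 by -0.21 ± 0.08, while Cyp27a1, of the alternative route of bile acid synthesis, was higher by 0.36 ± 0.11 and the bile acid-CoA ligase Slc27a5 by 0.21 ± 0.04. Of 5 LRH-1 targets, 1 was called higher and 1 lower, again Cyp8b1.

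Of 16 HNF4A targets, 1 was called higher and 5 lower, with a median of -0.08. G6pc, the glucose-6-phosphatase gene and a known ChREBP target, was lower by -4.79 ± 0.50, from a range of 14.12 to 16.30 in WT littermates to one of 9.11 to 13.60 in total KO. The next by size were the coagulation factor F7 (-0.47 ± 0.09) and the lipid transfer protein Mttp (-0.42 ± 0.09), and Ttr was higher (0.17 ± 0.05). Of 9 ERRα targets, 2 were higher (Acadm, 0.43 ± 0.05, and Cycs, 0.21 ± 0.05) and 1 lower (the citrate synthase gene Cs, -0.54 ± 0.14). For HNF4A targets, scaling to the 75th percentile of the median signal in place of quantile normalization gave 8 lower and 0 higher.

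Of 30 other nuclear receptors measured, 6 were called higher and 6 lower in total KO, with a median of 0.05. The heme-sensing clock repressor Nr1d1 was higher by 1.21 ± 0.25, the adipogenic receptor Pparg by 0.68 ± 0.19, and Nr6a1 by 0.56 ± 0.09. These genes were also called lower in WT littermates of the total line than in those of the ChREBPβ line (Nr1d1 -0.78, Pparg -0.98, Nr6a1 -0.46). The receptors that were lower included Ppard (-1.88 ± 0.42), the estrogen receptor Esr1 (-1.04 ± 0.20) and Rxrg (-0.74 ± 0.11). The difference between the knockout effects was called for Rxrg (-1, adjusted p = 1.36e-05) and Esr1 (-0.79, adjusted p = 0.0471) and missed the threshold for Ppard (-1.57, adjusted p = 0.065). Of the higher receptors named here, it was called for Nr6a1 (0.57, adjusted p = 0.00242). It was not called for Nr1d1 (0.95, adjusted p = 0.057) or Pparg (0.35, adjusted p = 0.434).

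**Figure D5:**
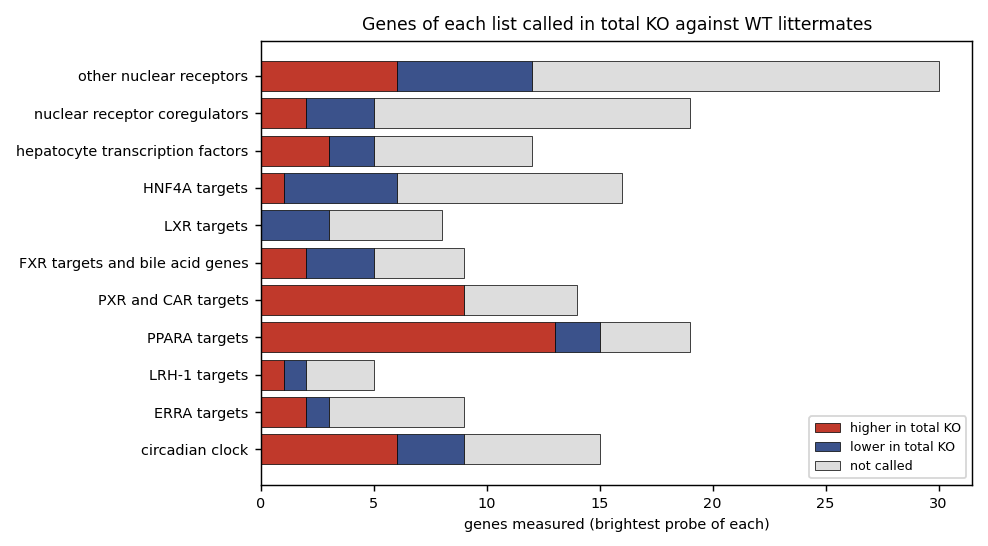
Number of measured genes of each list that were called higher, called lower or not called in total KO against WT littermates (horizontal axis, genes). PXR and CAR targets (9 of 14 higher) and PPARA targets (13 of 19 higher) lean to higher values, while 14.4% of all genes were called higher and 14.8% lower.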

How the data were processed

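The authors scanned 1 one-color array per mouse and extracted spot intensity with Feature Extraction 10.10.1.1 (per the file headers); these deposited intensity values were the starting point. The deposited table of log2 values was made by the authors with limma weights, quantile normalization and the median of spots with 1 probe name, and served as an alternative. Here, a spot was kept if it was detected, with a positive signal above its background, on 26 arrays or on 6 within 1 group; log2 median intensity was quantile normalized over 31 arrays and tested with limma 3.58.1 in R 4.3.3 on 4 groups, with Benjamini-Hochberg adjustment over all probes. A gene was read by its brightest probe. Named list genes were up to 4 called higher and 4 called lower in total KO, by size, and for each member the 2 genes of highest r; some of these are not reported here. Correlations used 100000 permutations, within groups over all mice, or all pairings of 6 mice. The members and lists were chosen with earlier results of these data known. The test was also run on simulated data in which deviations from group means were shuffled within each probe. That shuffling does not keep relations between probes or arrays of 1 slide, so it cannot show how the test behaves under them. The number of arrays limits the precision. The alternatives were other scalings, background correction, filters, slide, scan day and replicate blocks, other tests, and each mouse left out. The knockouts' mice were littermates of several litters, and the spread is that between mice.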

Additional observations from a re-analysis of the deposited data

Results flagged for a closer look

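In each group of 7 or 8 mice, the highest and lowest value of each member probe was compared with its nearest neighbor; 7 of 68 such groups had a value that stood apart (10.3%, where chance gives about 1 in 20), from 5 mice. In total KO replicate 7, Nr1i3 was low on both probes, at 10.58 and 8, against at least 11.56 and 9 in the other total KO mice. WT replicate 2 of the total line was low for the brighter Nr1h4 probe (13.12) and for the dimmer Nr1i3 probe (7.23). Its pancreatic markers summed to 14.93 on the log2 scale, the highest of its group, and their part was not tested. ChREBPβ KO replicate 2 was low for the brighter Nr1h4 probe (13.21) and replicate 5 for Nr1i2 (11.01). Total KO replicate 6 was low for Nr0b2 (8.88); its adipocyte markers summed to 13.20 on the log2 scale, the highest of all mice, and their part was not tested.

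The effects of the 2 knockouts differed by the interaction test for Nr1i3 (0.98 and 1.27 on its 2 probes) and for Ppara (0.70 and 0.71).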

How the results depend on the processing

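The calls of both Nr1i3 probes and both Ppara probes in total KO held under all 12 alternative settings and on leaving out each of 31 mice, with differences of 1.09 to 1.61 for Nr1i3 and 0.55 to 0.82 for Ppara. The count of member probes called higher in total KO, 5 at first, ranged from 4 to 7. The count called lower there went from 1 to 0 with slide as a fixed block, with a fold change of at least 1.5 as well, and on leaving out mice (0 to 1). In ChREBPβ KO, the count called higher was 2 by the unadjusted exact Mann-Whitney test. Between WT groups, the count called higher, 0 at first, was 1 (Hnf4a) under both 75th percentile scalings, normexp, the filter requiring all arrays (which drops the dimmer Esrra probe), the deposited values, random slide, scan day, the replicate block and eBayes with trend, 2 by the unadjusted exact Mann-Whitney test, and 0 to 1 without 1 mouse. The count called lower, 4 at first, ranged from 2 to 6 over the alternatives and from 3 to 5 without 1 mouse. It was 2 with a fold change of at least 1.5 and by the adjusted Mann-Whitney test.

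Small differences that were not called changed sign. In total KO, Nr1h3 was -0.01 with slide as a fixed block, and Nr1i2 was -0.02 under both 75th percentile scalings and -0.01 with fixed slide (-0.06 to 0.12 without 1 mouse). In ChREBPβ KO, Nr1i2 was -0.01, -0.04 and -0.03 with median scaling, processed signal and normexp, and Nr1h3 and Esrra were 0 with normexp or fixed slide. The ranges without 1 mouse there were -0.05 to 0.05 for Nr1i2, -0.06 to 0.04 for Esrra, -0.02 to 0.02 and -0.01 to 0.02 for Nr1h3, -0.10 to 0.05 for Nr1h4, and -0.09 to 0.08 and -0.15 to 0.01 for Ppara. For the difference of effects, Hnf4a was 0.07, 0.03, 0.04 and 0.02 with the deposited values, median scaling, processed signal and scan day (-0.05 to 0.04 without 1 mouse), and Nr1i2 was -0.02 with median scaling and -0.05 with fixed slide (-0.06 to 0.12). Between WT groups, Rxra was 0.02 with fixed slide and Nr0b2 ranged from -0.23 to 0 without 1 mouse. The cause was not tested.

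Deviations of mice with the same replicate number correlated at -0.16 to 0.53 in the ChREBPβ line (6 of 8 numbers over 0.1, 4 of 8 best with their own number) and at -0.21 to 0.24 in the total line (2 of 7 and 1 of 7). The labels do not say what a number marks, and since not every pair exceeded 0.1, the numbers were not used as a pairing; what the ChREBPβ line mice of 1 number share was not tested. With the replicate block, the count of member probes called in total KO was 6 higher and 1 lower, and over all probes 5251 higher and 5298 lower against 5229 and 5248 without it. The count of LXR targets called higher was 0 or 1 and that of PPARA targets called lower 1 or 2 over the settings and mice left out.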

Other observations

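Of 19 nuclear receptor coregulators, 2 were called higher and 3 lower in total KO, with a median of 0.04. Over all genes, 14.4% were called higher and 14.8% lower, so these counts lie near the general shares. Lpin1, a phosphatidate phosphatase that also acts as a coactivator of PPARα, was lower by -3.25 ± 0.20 (adjusted p = 6.21e-13), from a range of 11.47 to 12.65 in WT littermates to one of 8.14 to 9.43, and its difference between the knockout effects was -3.43. Tbl1xr1 (-0.33 ± 0.08) and Kdm1a (-0.22 ± 0.04), both parts of corepressor complexes, were lower, and the acetyltransferase Ep300 (0.19 ± 0.07) and the coactivator Ncoa1 (0.13 ± 0.05) were higher; under other settings, 0 to 3 coregulators were called higher. Of 12 hepatocyte transcription factors, 3 were higher (Onecut2, 0.56 ± 0.08; Foxa1, 0.52 ± 0.15; Creb3l3, 0.37 ± 0.12) and 2 lower, among them Cebpb (-0.46 ± 0.11).

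Clock genes also differed. Of 15 measured, 6 were called higher and 3 lower in total KO, against 14.4% and 14.8% of all genes. Those higher were led by Dbp (3.19 ± 0.99), Per1 (1.5 ± 0.28) and Per3 (1.42 ± 0.53). Arntl (-1.38 ± 0.47), Npas2 (-0.83 ± 0.21) and Cry1 (-0.58 ± 0.21) were lower, and Npas2 was well above background on 5 of 7 total KO arrays. In ChREBPβ KO, none of these genes was called by limma. Between the 2 knockout effects, 1 of the 15 was called higher (Per1, 1.22) and 0 lower, against 7.09% and 8.25% of all genes. For Dbp, that difference was 2.58 and was not called (adjusted p = 0.224 by limma). Between WT groups, Clock (0.42) was called higher and Per3 (-1.48) and Nr1d1 (-0.78) lower in the total line, against 7.79% and 9.36% of all genes. Under other settings, 4 to 8 were called higher and 1 to 3 lower in total KO.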
